A study of Mus musculus with 12 samples.

Results

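The 39 genes described here are interferon-stimulated genes, a list named gene by gene and looked up by symbol in a table of raw read counts for 78334 mouse genes. Each of the 39 matched 1 row, and 36 had enough reads to be tested among 16981 genes tested in all. The study sequenced poly(A) RNA from about 10 mg of left ventricle of 12 mice, with 1 library per mouse and 4 mice in each of 3 groups. Sham vehicle mice had sham surgery and ate normal chow. UNX/DOCA vehicle mice had UNX/DOCA surgery, in common use the removal of a kidney combined with deoxycorticosterone acetate, a mineralocorticoid that raises blood pressure, and also ate normal chow. UNX/DOCA ITF2357 mice had the same surgery and were switched 4 weeks later, for another 4 weeks, to chow containing ITF2357 (givinostat), an inhibitor of histone deacetylases. The labels present UNX/DOCA as a model of diastolic dysfunction, a ventricle that relaxes and fills poorly. The treatment label reads ITF2357 for replicate 1 of that group and a number higher by 1 for each next replicate, while titles and protocol name ITF2357 for all 4, and the titles were followed. The labels do not state strain, sex or age, and no Sham group received ITF2357. Every library is whole tissue, so fewer cells of a type and less RNA per cell cannot be told apart.

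Interferons are secreted proteins that signal an infection or tissue damage. Type I interferons act through the receptor chains Ifnar1 and Ifnar2, type II interferon (Ifng) through Ifngr1 and Ifngr2, and type III interferons through Ifnlr1 and Il10rb. Types I and III lead to a complex that contains Stat2 and Irf9 and binds the interferon-stimulated response element, while type II acts mainly through the gamma-activated sequence. The genes under these elements encode antiviral effectors, nucleic acid sensors, GTPases that take part in the defence against intracellular pathogens and the machinery that loads peptides onto MHC class I. In the heart this programme is known from viral myocarditis and from the sensing of released DNA and RNA after injury.

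Promoter sequence was available for 30 of the 39 genes in RefSeq (GRCm38.p6). Each window was searched on both strands for GAAA followed, after any 2 bases, by another GAAA, which is the core of the interferon-stimulated response element, and for TTCNNNGAA, the core of the gamma-activated sequence, which reads the same on both strands. The first was found in 17 of the 30 genes (56.7%) and in 3.99% of all 27025 genes with a window. The second was found in 9 of the 30 (30%) and in 9.55% of all genes. Both were present in 4 genes, and 8 had neither, namely Irf7, Irf9, Ifi44, Oasl1, Oasl2, Psmb9, Tap1 and Xaf1. A match is a run of letters and not a measured binding site. The 6 stretches below are the 200 bases before the start of transcription, 5′ to 3′ in the direction of the gene, with matches in capitals. Isg15 (chr4:156200819-156201018, minus strand) carries 3 overlapping matches to the first motif, the most of any member. Bst2 (chr8:71537473-71537672, minus strand), the member with the highest level per length, carries 2 such matches running into a match to the second motif. Ifit3 (chr19:34583329-34583528, plus strand) and Ifit3b (chr19:34607757-34607956, plus strand) are near copies, with 259 identical aligned bases in windows of 300 bases, and both carry the first motif at 2 places. Irf1 (chr11:53769814-53770013, plus strand) carries only the second motif, and Igtp (chr11:58199356-58199555, plus strand) carries both.
Isg15: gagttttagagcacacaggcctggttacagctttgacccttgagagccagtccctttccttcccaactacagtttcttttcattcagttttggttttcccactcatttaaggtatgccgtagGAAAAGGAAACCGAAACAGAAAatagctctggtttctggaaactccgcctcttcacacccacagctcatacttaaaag
Bst2: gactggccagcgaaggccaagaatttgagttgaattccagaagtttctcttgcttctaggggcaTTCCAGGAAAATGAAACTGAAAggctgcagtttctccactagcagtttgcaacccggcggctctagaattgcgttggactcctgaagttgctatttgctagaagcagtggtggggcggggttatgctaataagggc
Ifit3: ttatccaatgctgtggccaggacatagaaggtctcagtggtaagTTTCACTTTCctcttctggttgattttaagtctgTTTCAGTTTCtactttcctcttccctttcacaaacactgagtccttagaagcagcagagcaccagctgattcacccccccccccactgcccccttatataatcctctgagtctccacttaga
Ifit3b: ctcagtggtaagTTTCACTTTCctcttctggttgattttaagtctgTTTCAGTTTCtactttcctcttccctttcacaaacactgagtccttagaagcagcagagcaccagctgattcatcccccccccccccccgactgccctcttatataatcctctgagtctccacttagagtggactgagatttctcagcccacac
Irf1: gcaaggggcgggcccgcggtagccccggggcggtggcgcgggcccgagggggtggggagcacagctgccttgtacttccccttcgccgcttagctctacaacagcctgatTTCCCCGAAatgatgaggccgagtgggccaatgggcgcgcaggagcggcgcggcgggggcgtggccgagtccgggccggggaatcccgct
Igtp: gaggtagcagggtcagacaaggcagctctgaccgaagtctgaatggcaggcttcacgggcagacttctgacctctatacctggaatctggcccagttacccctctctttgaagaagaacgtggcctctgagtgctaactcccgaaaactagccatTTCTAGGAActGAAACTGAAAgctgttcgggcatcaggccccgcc

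The members were expressed at low to moderate levels, and the level differed widely between them. Levels of different genes are compared here as read counts scaled to a common library size (counts per M reads, CPM, scaled between libraries by the trimmed mean of M values, TMM) per kilobase of exon, averaged over the 12 libraries. On this scale 17 members were above 2, 9 lay between 1 and 2, and 13 were below 1. Bst2, or tetherin, which holds budding virus at the cell surface, was highest at 9.62 CPM per kilobase, followed by the GTPase gene Iigp1 at 9.14, Ifi35 at 7.45, Igtp at 5.52 and Xaf1 at 5.17. Zbp1 (0.104), Mx1 (0.0698) and Oas3 (0.0407 CPM per kilobase) were at the other end. The interferon genes themselves gave almost no reads: of 12 listed ligands, among them Ifnb1, Ifng and Ifnl2, 11 had 0 reads in every library, and Ifnab had 1 read in each of 2 libraries. A count of 0 in a library allows up to 3 reads, and 1 read was worth 0.0353 CPM at the mean depth.

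Sequencing depth was similar across libraries, from 23.4 to 34.9 M counted reads (mean 28.3 M). Cardiomyocyte genes (Myh6, Actc1, Tnnt2, Ryr2 and Pln) summed to 39840 to 52370 CPM over the 12 libraries, far above every other marker list, as the tissue label says. UNX/DOCA vehicle replicates 3 and 4 stood apart by their leukocyte genes. The 8 macrophage markers summed to 519.7 and 380.9 CPM there, against 193.8 and 266.2 in the other 2 mice of that group, 202 to 240.8 in Sham vehicle and 185.4 to 354.2 in UNX/DOCA ITF2357. The 5 neutrophil markers summed to 495.5 and 148 CPM in the same 2 libraries and to 3.62 to 43.2 in all others. Siglech and Ccr9, markers of plasmacytoid dendritic cells, which are strong producers of type I interferon, summed to 0.456 to 1.45 CPM, with Ccr9 at 0 in 1 library. Bst2 (a member), Cox6a2 (758 to 986 CPM) and Klk1 of the same marker list were left out of this sum. Klk1 was at 0 to 0.32 CPM in Sham vehicle, 0.396 to 1.71 in UNX/DOCA vehicle and 0.0304 to 0.924 in UNX/DOCA ITF2357. Its log2 fold change in UNX/DOCA vehicle against Sham vehicle was 2.55 (edgeR, adjusted p = 0.203). Values without UNX/DOCA vehicle replicates 3 and 4 are therefore given for the main results in which these mice were highest.

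No interferon-stimulated gene passed the test in any of the 3 comparisons. edgeR's quasi-likelihood test with adjustment over all 16981 genes called 0 of 36 members between UNX/DOCA vehicle and Sham vehicle, where it called 0% of all genes. It called 0 of 36 between UNX/DOCA ITF2357 and UNX/DOCA vehicle, where 0.901% of all genes passed, and 0 of 36 between UNX/DOCA ITF2357 and Sham vehicle, where 1.75% passed. DESeq2 and limma-voom also called 0 members in each comparison, and called 3.49% and 3.29%, 5.45% and 1.41%, and 6.88% and 9% of all genes. At an unadjusted p under 0.05 there were 3 members (Irf9, Zbp1 and Oas1a, all higher in UNX/DOCA vehicle) in the first comparison, 4 in the second (Irf1 and Ifit2 higher with ITF2357, Rsad2 and Irf9 lower) and 1 in the third (Irf1, higher with ITF2357). Among all genes, an unadjusted p under 0.05 was reached by 9.42% higher and 6.47% lower in the first comparison, 8.7% and 9.8% in the second and 10.7% and 9.39% in the third, so the members' shares were not above the background. Groups that did not overlap were found for 1 member higher and 0 lower in the first comparison (5.03% and 4.36% of all genes), 0 and 0 in the second (4.95% and 4.36%) and 1 higher and 0 lower in the third (7.27% and 6.39%).

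For most members these data limited the change to less than 2-fold either way, and smaller changes remained possible. The median SE of the members' log2 fold changes was 0.216 in each of the 3 comparisons. The 95% interval of the fold change lay wholly within 2-fold either way for 32, 32 and 33 of 36 members in the 3 comparisons, against 78%, 77.8% and 77.6% of all genes. The median log2 fold change of the members was 0.13, -0.14 and 0.08 in the 3 comparisons in the same order, where the medians of all genes were 0.007, -0.001 and 0.015. A value above 0 was found in 26, 11 and 23 of 36 members, against 51.1%, 49.8% and 52.3% of all genes. The comparisons share libraries, so these counts are not independent of each other. Without UNX/DOCA vehicle replicates 3 and 4 the member median was -0.001 in the first comparison and 0.000 in the second. With 1 library left out in turn, the first median ran from 0.031 (without UNX/DOCA vehicle replicate 4) to 0.225 (without UNX/DOCA vehicle replicate 1), and the second from -0.244 (without UNX/DOCA ITF2357 replicate 2) to 0.005 (without UNX/DOCA vehicle replicate 4). The third ran from -0.074 (without UNX/DOCA ITF2357 replicate 2) to 0.121 (without Sham vehicle replicate 2).

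**Figure D1:**
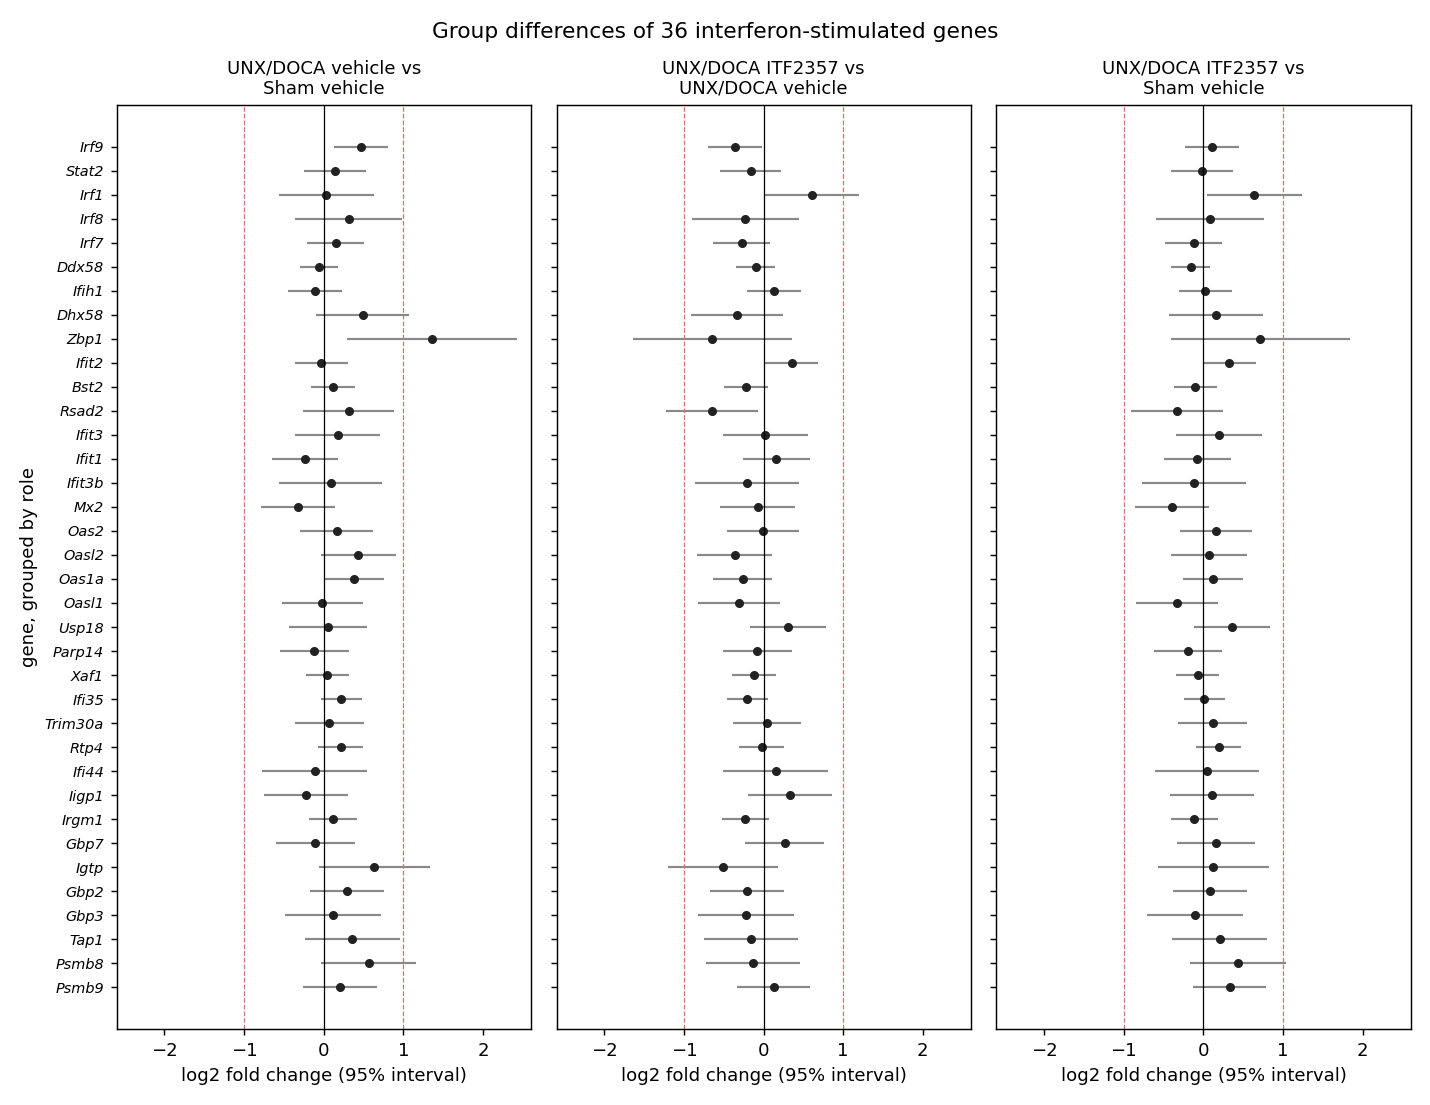
Log2 fold change of each tested member (point) with its 95% interval (line) in the 3 comparisons, first group minus second, in rows grouped by role and with dashed lines at 2-fold. No member passed the adjusted threshold in any panel, and 32, 32 and 33 of 36 intervals lie between the dashed lines.

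The transcription factors held the smallest p in the comparison of UNX/DOCA vehicle with Sham vehicle (Irf9) and in that of UNX/DOCA ITF2357 with Sham vehicle (Irf1). Irf9, the DNA-binding subunit of the complex that type I interferon activates, was at 13.6, 13.8, 12.9 and 12.9 CPM in Sham vehicle mice, 11.98, 20.1, 20.7 and 20.8 in UNX/DOCA vehicle mice and 12.3, 16.8, 14.8 and 13.4 in UNX/DOCA ITF2357 mice. In UNX/DOCA vehicle 3 of 4 mice were above every Sham mouse and every ITF2357 mouse, while replicate 1 was below the lowest Sham value, so that the groups overlapped. The log2 fold change was 0.47 ± 0.16 SE (adjusted p = 0.196) in UNX/DOCA vehicle against Sham vehicle and -0.36 ± 0.16 SE (adjusted p = 0.244) in UNX/DOCA ITF2357 against UNX/DOCA vehicle. Without UNX/DOCA vehicle replicate 1 both differences passed with edgeR (0.62, adjusted p = 0.0211, where 2.2% of all genes passed, and -0.52, adjusted p = 0.0384, where 1.41% passed). Without replicates 3 and 4 they were 0.27 (adjusted p = 0.818) and -0.17 (adjusted p = 0.765). Irf9 overlaps Rnf31, a ubiquitin ligase gene on the same strand, and how reads in the overlap were counted is not known. Rnf31 itself ran from 18.4 to 27.7 CPM, with a log2 fold change of 0.086 ± 0.127 SE in the first comparison.

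Irf1, an activator that interferon gamma induces strongly, was at 10.7, 10.1, 6.69 and 6.41 CPM in Sham vehicle mice, 4.56, 11.9, 11.6 and 6.83 in UNX/DOCA vehicle mice and 12.5, 15.6, 13.1 and 11.8 in UNX/DOCA ITF2357 mice. All 4 ITF2357 mice were above all 4 Sham mice, and 3 of them were above all UNX/DOCA vehicle mice. Irf1 was the only member with no overlap between UNX/DOCA ITF2357 and Sham vehicle, a separation seen in this direction in 7.27% of all genes. In log2 terms the difference was 0.64 ± 0.27 SE (adjusted p = 0.217) against Sham vehicle and 0.61 ± 0.27 SE (adjusted p = 0.258) against UNX/DOCA vehicle. Stat2, the partner of Irf9, was at 14.8, 17.7, 11.04 and 14.2 CPM in Sham vehicle mice, 12.8, 16.1, 19.99 and 14.96 in UNX/DOCA vehicle mice and 14.01, 17.9, 14.3 and 10.8 in UNX/DOCA ITF2357 mice. These groups overlapped throughout, as they did for the next factor, Irf7, which amplifies the induction of interferon alpha genes. Irf7 was at 7.64, 5.81, 6.73 and 5.81 CPM in Sham vehicle mice, 7.79, 6.56, 5.69 and 8.81 in UNX/DOCA vehicle mice and 5.51, 6.77, 6.82 and 4.72 in UNX/DOCA ITF2357 mice. Irf8, a factor of myeloid cells that also responds to interferon gamma, was at 5.02, 6.73, 4.87 and 7.69 CPM in Sham vehicle mice, 6.55, 5.88, 10.2 and 7.73 in UNX/DOCA vehicle mice and 4.14, 6.56, 3.902 and 11.3 in UNX/DOCA ITF2357 mice. The highest Irf8 values belonged to UNX/DOCA vehicle replicate 3 and UNX/DOCA ITF2357 replicate 4, the libraries with the highest summed macrophage markers of their groups (519.7 and 354.2 CPM), and the part of those cells in the Irf8 values was not tested.

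Among the sensors of foreign nucleic acid, Zbp1 differed most between mice. Ifih1 (MDA5), a sensor of long double-stranded RNA, was at 8.44, 8.35, 8.15 and 7.49 CPM in Sham vehicle mice, 8.98, 7.24, 5.195 and 8.63 in UNX/DOCA vehicle mice and 7.73, 9.48, 8.56 and 7.21 in UNX/DOCA ITF2357 mice. Its lowest value was in UNX/DOCA vehicle replicate 3, and the groups overlapped. Ddx58 (RIG-I), a sensor of RNA ends, stayed between 11.4 and 17.8 CPM over the 12 libraries and had the second smallest p among the lower members in UNX/DOCA ITF2357 against Sham vehicle, with a log2 fold change of -0.16 ± 0.11 SE (adjusted p = 0.445). Dhx58, a helicase of the same family, stayed between 0.702 and 1.91 CPM. Zbp1, a sensor of Z-form nucleic acid that can trigger necroptosis, was at 0.152, 0.307, 0.0791 and 0.2803 CPM in Sham vehicle mice, 0.2699, 0.291, 0.831 and 0.827 in UNX/DOCA vehicle mice and 0.185, 0.425, 0.361 and 0.414 in UNX/DOCA ITF2357 mice. These values rest on 2 to 23 reads per library. UNX/DOCA vehicle replicates 3 and 4 were the highest of the 12 libraries, and nearly equal. UNX/DOCA vehicle differed from Sham vehicle by a log2 fold change of 1.36 ± 0.50 SE (adjusted p = 0.218), and without these 2 libraries it was 0.41 (adjusted p = 0.929).

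Among the direct antiviral effectors, Ifit2 and Rsad2 pointed in opposite directions under ITF2357. The Ifit proteins bind foreign RNA and block its translation. Ifit2 was at 14.8, 11.7, 12.2 and 10.3 CPM in Sham vehicle mice, 10.9, 12.1, 9.39 and 15.6 in UNX/DOCA vehicle mice and 16.1, 15.5, 16.7 and 13.01 in UNX/DOCA ITF2357 mice. UNX/DOCA ITF2357 replicates 1 and 3 were above all mice of the other groups, while Sham vehicle replicate 1 and UNX/DOCA vehicle replicate 4 were above UNX/DOCA ITF2357 replicate 4. Its log2 fold change was 0.35 ± 0.15 SE (adjusted p = 0.244) against UNX/DOCA vehicle and 0.32 ± 0.15 SE (adjusted p = 0.265) against Sham vehicle. Rsad2 (viperin), which makes a chain-terminating nucleotide, was at 8.82, 6.59, 6.81 and 5.29 CPM in Sham vehicle mice, 6.14, 9.18, 7.15 and 11.7 in UNX/DOCA vehicle mice and 5.84, 8.11, 3.54 and 4.23 in UNX/DOCA ITF2357 mice. It was lowest in UNX/DOCA ITF2357 replicates 3 and 4 and highest in UNX/DOCA vehicle replicate 4, with overlap between the groups. Against UNX/DOCA vehicle its log2 fold change was -0.65 ± 0.27 SE (adjusted p = 0.215), the smallest p of any lower member in that comparison.

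For the other effectors the groups overlapped in every comparison. Ifit3 was at 6.46, 5.36, 4.91 and 5.49 CPM in Sham vehicle mice, 3.91, 6.24, 5.78 and 9.13 in UNX/DOCA vehicle mice and 5.102, 9.08, 6.36 and 4.81 in UNX/DOCA ITF2357 mice. UNX/DOCA vehicle replicate 4 and UNX/DOCA ITF2357 replicate 2 were the highest of the 12, at almost the same level. Its near copy Ifit3b ran from 1.41 to 3.92 CPM and was also highest in UNX/DOCA vehicle replicate 4, and reads that fit both copies make the split between them uncertain. Ifit1 was at 4.14, 4.22, 3.52 and 4.57 CPM in Sham vehicle mice, 2.73, 3.43, 2.91 and 4.89 in UNX/DOCA vehicle mice and 4.44, 4.1, 4.098 and 2.94 in UNX/DOCA ITF2357 mice. It had the second smallest p among the lower members in UNX/DOCA vehicle against Sham vehicle, at -0.24 ± 0.19 SE (adjusted p = 0.586). Bst2 was at 9.01, 9.67, 7.56 and 8.29 CPM in Sham vehicle mice, 8.098, 8.05, 10.02 and 11.4 in UNX/DOCA vehicle mice and 7.84, 8.503, 7.93 and 7.91 in UNX/DOCA ITF2357 mice. In UNX/DOCA ITF2357 against UNX/DOCA vehicle it had the third smallest p among the lower members, at -0.22 ± 0.13 SE (adjusted p = 0.372), where the ITF2357 mice were close together and UNX/DOCA vehicle replicates 3 and 4 were the 2 highest. Without those 2 mice the Bst2 difference was -0.01 (adjusted p = 0.987). Mx2, a dynamin-like GTPase, was at 1.86, 2.43, 2.06 and 1.92 CPM in Sham vehicle mice, 1.76, 1.39, 1.37 and 2.12 in UNX/DOCA vehicle mice and 1.55, 2.07, 1.57 and 1.08 in UNX/DOCA ITF2357 mice. It had the smallest p among the lower members against Sham vehicle in both operated groups (-0.32 ± 0.22 SE, adjusted p = 0.501 for UNX/DOCA vehicle and -0.40 ± 0.22 SE (adjusted p = 0.329) for UNX/DOCA ITF2357). Mx1 was at 0.152, 0.1397, 0.396 and 0.1201 CPM in Sham vehicle mice, 0.202, 0.291, 0.208 and 0.504 in UNX/DOCA vehicle mice and 0.185, 0.577, 0.2295 and 0.166 in UNX/DOCA ITF2357 mice, or 3 to 19 reads per library, and was not tested.

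**Figure D2:**
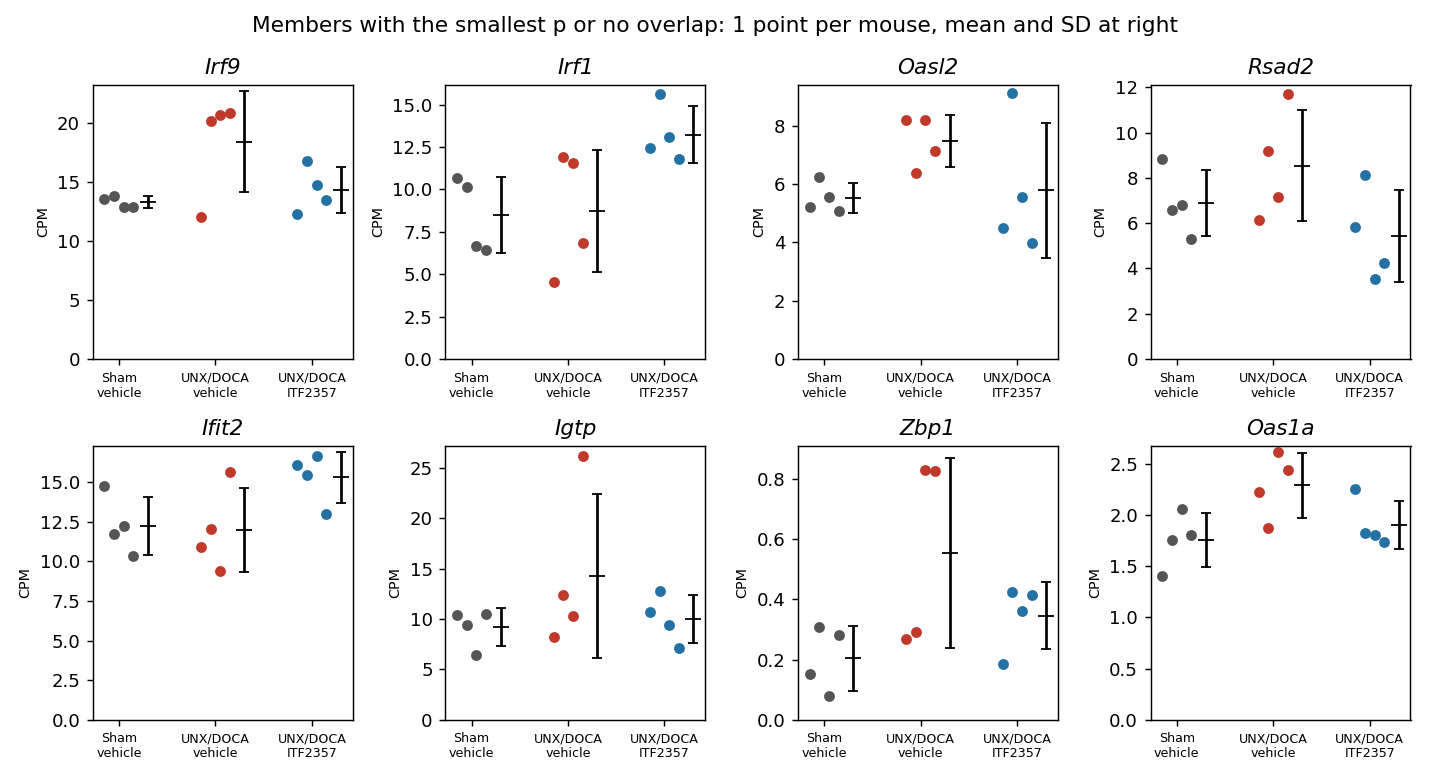
CPM of 8 members in each mouse (points), with the mean and SD of the 4 mice of a group at the right of the points and axes that start at 0. For Irf9 and Zbp1 the high values come from 3 and 2 of the 4 UNX/DOCA vehicle mice, and Irf1 and Oasl2 show the only separations between groups among the members.

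The oligoadenylate synthetase family makes the messenger that activates an RNA-degrading enzyme, RNase L. Oasl2, a relative that supports RNA sensing, was at 5.21, 6.23, 5.54 and 5.09 CPM in Sham vehicle mice, 8.199, 6.37, 8.19 and 7.12 in UNX/DOCA vehicle mice and 4.47, 9.11, 5.54 and 3.98 in UNX/DOCA ITF2357 mice. Every UNX/DOCA vehicle mouse was above every Sham mouse, the only member of which that was true, with a narrow gap (6.37 against 6.23 CPM). This separation was found in 5.03% of all genes. Its log2 fold change was 0.43 ± 0.22 SE (adjusted p = 0.352), and it was 0.40 (adjusted p = 0.831) without UNX/DOCA vehicle replicates 3 and 4. Oas1a was at 1.41, 1.76, 2.06 and 1.802 CPM in Sham vehicle mice, 2.23, 1.88, 2.62 and 2.45 in UNX/DOCA vehicle mice and 2.26, 1.82, 1.803 and 1.74 in UNX/DOCA ITF2357 mice. Its log2 fold change in UNX/DOCA vehicle against Sham vehicle was 0.38 ± 0.17 SE (adjusted p = 0.31), with overlap through UNX/DOCA vehicle replicate 2. UNX/DOCA vehicle replicates 3 and 4 were the 2 highest libraries for Oas1a. Over all settings, left-out libraries among them, this log2 fold change ran from 0.22 to 0.46, and the smallest adjusted p was 0.177 (limma-voom). Oas2 was at 7.38, 9.67, 7.83 and 6.73 CPM in Sham vehicle mice, 6.51, 7.63, 11.9 and 9.53 in UNX/DOCA vehicle mice and 6.06, 10.6, 10.5 and 8.16 in UNX/DOCA ITF2357 mice, with no order between the groups. Oasl1 ran from 0.853 to 1.72 CPM and had the third smallest p among the lower members in UNX/DOCA ITF2357 against Sham vehicle, at -0.33 ± 0.24 SE (adjusted p = 0.475). Oas3 was at 0.152, 0.307, 0.119 and 0.1602 CPM in Sham vehicle mice, 0.2699, 0.162, 0.997 and 0.755 in UNX/DOCA vehicle mice and 0.222, 0.152, 0.0328 and 0.124 in UNX/DOCA ITF2357 mice. It had 1 to 24 reads per library, with the 2 highest values in UNX/DOCA vehicle replicates 3 and 4, and was not tested. With no filter on low counts its log2 fold change in UNX/DOCA ITF2357 against UNX/DOCA vehicle was -1.98 (edgeR, adjusted p = 0.0491, where 0.804% of genes passed), and that fit was not repeated without those 2 libraries.

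Of the Isg15 system, Isg15 itself was near the limit of detection. This gene, which encodes a ubiquitin-like protein that is attached to other proteins and is often among the most induced interferon genes, was at 0.228, 0.251, 0.0791 and 0.2403 CPM in Sham vehicle mice, 0.337, 0.09696, 0.0831 and 0.252 in UNX/DOCA vehicle mice and 0.148, 0.243, 0.0656 and 0.0829 in UNX/DOCA ITF2357 mice. That is 2 to 10 reads per library, too few to test. Usp18, which removes Isg15 and also restrains the type I receptor, was at 1.37, 1.98, 1.54 and 1.08 CPM in Sham vehicle mice, 1.38, 1.55, 1.66 and 1.65 in UNX/DOCA vehicle mice and 1.81, 2.34, 2.197 and 1.33 in UNX/DOCA ITF2357 mice. It had the third smallest p among the higher members in both comparisons with ITF2357, at 0.30 ± 0.22 SE (adjusted p = 0.492) against UNX/DOCA vehicle and 0.36 ± 0.22 SE (adjusted p = 0.396) against Sham vehicle, and the groups overlapped.

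The group means of the remaining induced genes, which have mixed roles, lay close together, while single mice left the Sham range. Xaf1, a gene linked to apoptosis, was at 24.6, 27.1, 23.5 and 22.3 CPM in Sham vehicle mice, 23.6, 25.6, 25.1 and 26.6 in UNX/DOCA vehicle mice and 17.9, 28.9, 25.3 and 20.6 in UNX/DOCA ITF2357 mice. Parp14, an ADP-ribosyltransferase, was at 29.4, 34.1, 26.5 and 25.9 CPM in Sham vehicle mice, 23.9, 29.2, 21.9 and 31.9 in UNX/DOCA vehicle mice and 22.96, 35.9, 25.8 and 16.5 in UNX/DOCA ITF2357 mice. In both genes UNX/DOCA ITF2357 replicate 2 was the highest of the 12 libraries and an ITF2357 mouse was also the lowest. Trim30a was at 8.48, 9.64, 9.54 and 7.89 CPM in Sham vehicle mice, 7.69, 7.69, 11.2 and 10.8 in UNX/DOCA vehicle mice and 7.099, 12.1, 12 and 7.21 in UNX/DOCA ITF2357 mice. Ifi35 was at 11.65 to 12.4 CPM in Sham vehicle mice and at 10.8, 13.8, 15.1 and 16.9 CPM in UNX/DOCA vehicle mice. In UNX/DOCA ITF2357 mice it was at 11.3 to 12.7 CPM. Over all settings its log2 fold change ran from 0.016 to 0.322 in UNX/DOCA vehicle against Sham vehicle. In UNX/DOCA ITF2357 against UNX/DOCA vehicle it ran from -0.317 to -0.01. The smallest adjusted p were 0.0838 and 0.0942 (edgeR, without UNX/DOCA vehicle replicate 1). Rtp4 ran from 2.96 to 4.28 CPM and Ifi44 from 1.29 to 4.46 CPM. In the main fit the log2 fold changes of these 6 genes in the 3 comparisons ran from -0.21 to 0.22.

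The guanylate-binding proteins and immunity-related GTPases take part in the defence against intracellular pathogens, and most respond to interferon gamma. Gbp2 was at 11.3, 10.5, 8.59 and 9.13 CPM in Sham vehicle mice, 9.35, 12.5, 13.3 and 13.5 in UNX/DOCA vehicle mice and 6.73, 15.5, 10.8 and 8.82 in UNX/DOCA ITF2357 mice. Gbp3 was at 8.67, 7.71, 5.18 and 7.53 CPM in Sham vehicle mice, 6.34, 7.401, 6.19 and 11.7 in UNX/DOCA vehicle mice and 5.102, 10.9, 6.03 and 4.93 in UNX/DOCA ITF2357 mice. In both, UNX/DOCA ITF2357 replicate 2 and UNX/DOCA vehicle replicate 4 were the 2 highest libraries of the 12. Gbp7 ran from 7.95 to 19.3 CPM, highest in UNX/DOCA ITF2357 replicate 2 and lowest in replicate 4 of the same group. Igtp was at 10.4, 9.42, 6.45 and 10.5 CPM in Sham vehicle mice, 8.23, 12.4, 10.3 and 26.2 in UNX/DOCA vehicle mice and 10.7, 12.8, 9.44 and 7.13 in UNX/DOCA ITF2357 mice. A single mouse, UNX/DOCA vehicle replicate 4, was about 2-fold above the next highest library. The log2 fold change of Igtp was 0.63 ± 0.32 SE (adjusted p = 0.357) against Sham vehicle, and 0.17 (adjusted p = 0.944) without UNX/DOCA vehicle replicates 3 and 4. Irgm2, a GTPase gene that overlaps Igtp on the same strand, was also highest in that mouse at 21.97 CPM, against 6.21 to 13.3 CPM elsewhere, so reads shared by the pair cannot be told apart. Irgm1 was at 14.5, 13.9, 11.2 and 12.97 CPM in Sham vehicle mice, 12.4, 14.96, 12.8 and 16.7 in UNX/DOCA vehicle mice and 14.4, 12.8, 11.6 and 9.69 in UNX/DOCA ITF2357 mice. Iigp1 was at 66.3, 35.1, 55.6 and 60.9 CPM in Sham vehicle mice, 36.7, 61.3, 35.5 and 52.97 in UNX/DOCA vehicle mice and 66.8, 60.5, 37.3 and 69.7 in UNX/DOCA ITF2357 mice. Every group held low values of 35.1 to 37.3 CPM beside others of 53 to 69.7 CPM, and the log2 fold change was -0.22 ± 0.24 SE (adjusted p = 0.694) in UNX/DOCA vehicle against Sham vehicle, the third smallest p among the lower members.

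The class I antigen processing members were the highest as a group in 2 mice. Psmb8 and Psmb9 encode catalytic subunits of the immunoproteasome, which cuts proteins into peptides, and Tap1 carries the peptides into the endoplasmic reticulum. Psmb8 was at 4.6, 3.49, 2.85 and 2.64 CPM in Sham vehicle mice, 3.64, 3.39, 5.28 and 7.84 in UNX/DOCA vehicle mice and 4.73, 6.104, 3.87 and 3.65 in UNX/DOCA ITF2357 mice. Psmb9 was at 3.08, 2.74, 3.13 and 3.68 CPM in Sham vehicle mice, 3.51, 2.72, 3.99 and 4.28 in UNX/DOCA vehicle mice and 3.402, 5.83, 3.38 and 3.15 in UNX/DOCA ITF2357 mice. Tap1 was at 8.44, 6.48, 5.54 and 5.13 CPM in Sham vehicle mice, 6.01, 6.53, 9.64 and 10.7 in UNX/DOCA vehicle mice and 6.25, 11.6, 6.79 and 4.68 in UNX/DOCA ITF2357 mice. UNX/DOCA ITF2357 replicate 2 and UNX/DOCA vehicle replicate 4 held the 2 highest values of all 3 genes. The log2 fold changes against Sham vehicle were 0.56 ± 0.28 SE (adjusted p = 0.343) for Psmb8 and 0.36 ± 0.28 SE (adjusted p = 0.561) for Tap1 in UNX/DOCA vehicle. Without UNX/DOCA vehicle replicates 3 and 4 they were 0.050 and -0.03. Psmb9 and Tap1 overlap on opposite strands, and how strand was used in counting is not given in the sources used here.

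What stood out in these genes was the difference between mice of the same group. For each library, the members' log2 levels were set against each gene's mean over the 12 libraries, and the median over the 36 members was taken. It ran from -0.145 to 0.069 across Sham vehicle mice, from -0.163 to 0.29 across UNX/DOCA vehicle mice and from -0.254 to 0.276 across UNX/DOCA ITF2357 mice. The group means were -0.036 ± 0.11, 0.066 ± 0.19 and -0.044 ± 0.232 (SD, n = 4), so the groups differed by less than the spread between mice within them. The same median over all genes stayed between -0.004 and 0.017 in every library.

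Both libraries with high members were of operated mice, 1 on each chow. UNX/DOCA vehicle replicate 4 was above the gene's mean for 35 of 36 members and was the highest of 12 libraries for 12 of them (33.3%), while it was the highest for 5.8% of all genes. UNX/DOCA ITF2357 replicate 2 was above the mean for 32 members and the highest for 13 (36.1%), against 7.67% of all genes. UNX/DOCA ITF2357 replicate 4 was above the mean for 6 members and the lowest library for 11 (30.6%), against 11.2% of all genes. UNX/DOCA vehicle replicate 3, the library with the highest macrophage and neutrophil markers, was the highest for 5 members (13.9%) and for 19.1% of all genes. Summed macrophage markers were 380.9, 270.7 and 354.2 CPM in these first 3 libraries and summed neutrophil markers 148, 16 and 26.6 CPM. UNX/DOCA vehicle replicate 4 also had the highest summed T and NK cell markers of the 12 libraries (3.92 CPM, against 1.549 in UNX/DOCA ITF2357 replicate 2). UNX/DOCA ITF2357 replicate 2 had the highest summed endothelial markers (732.4 CPM, against 479.7 to 573.8 in the other mice of its group). Endothelial markers summed to 637.4 to 703 CPM in UNX/DOCA vehicle (661.4 in replicate 4) and 559.7 to 639 in Sham vehicle. The part of any of these cells in the members' levels was not tested. The median coefficient of variation of the members was 14.2% among Sham vehicle, 21.8% among UNX/DOCA vehicle and 24% among UNX/DOCA ITF2357 mice, against 11.6%, 16.9% and 14.9% for all genes. The spread ran from 2.8% for Ifi35 to 52.6% for Zbp1 in Sham vehicle, from 4.73% for Ddx58 to 57.1% for Zbp1 among UNX/DOCA vehicle mice, and among the ITF2357 mice from 3.81% for Bst2 to 52.9% for Irf8.

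**Figure D3:**
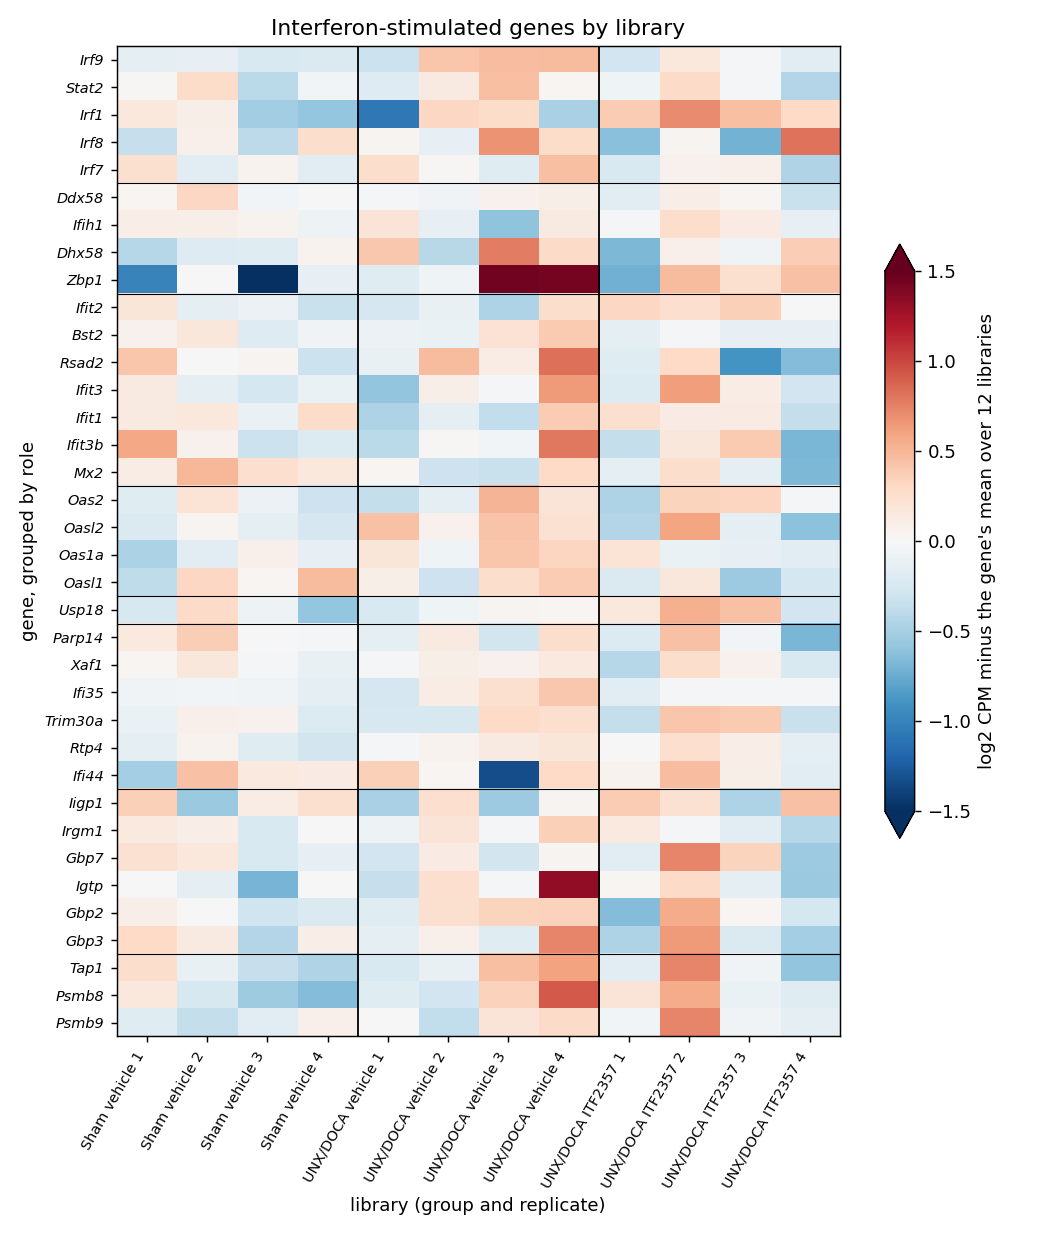
Colour gives each member's log2 CPM minus its mean over the 12 libraries (rows, grouped by role) in each library (columns, grouped by condition), with red above and blue below the mean. The UNX/DOCA vehicle 4 column is red in 35 of 36 rows and the UNX/DOCA ITF2357 2 column in 32, while UNX/DOCA ITF2357 4 is above the mean in 6.

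**Figure D4:**
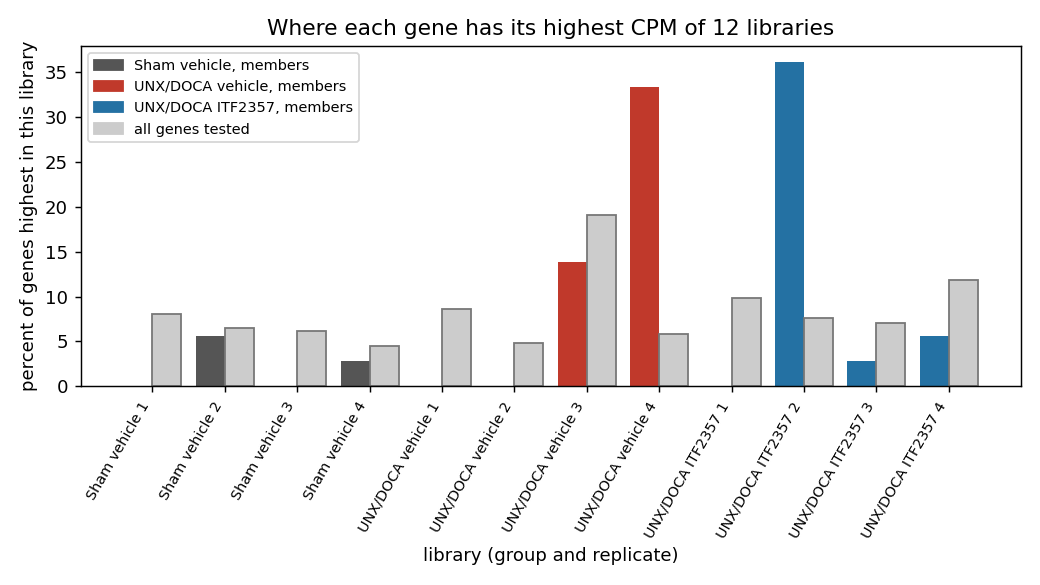
Percent of the 36 tested members (coloured bars) and of all genes tested (grey bars) that have their highest CPM in each of the 12 libraries. UNX/DOCA vehicle 4 and UNX/DOCA ITF2357 2 hold 33.3% and 36.1% of the members' highest values, against 5.8% and 7.67% for all genes.

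The rest of the pathway was followed with 109 further genes in 7 lists, of which 91 were tested. In UNX/DOCA vehicle against Sham vehicle 0 of 91 passed with edgeR, while DESeq2 called 6 and limma-voom 4, all higher. At an unadjusted p under 0.05 there were 22 higher (24.2%, against 9.42% of all genes) and 1 lower (1.1%, against 6.47%). Without UNX/DOCA vehicle replicates 3 and 4 the smallest adjusted p among these genes in this comparison was 0.645 (edgeR, Stat3 and Ly6a). Shares at an unadjusted p were not computed for that fit. In UNX/DOCA ITF2357 against UNX/DOCA vehicle edgeR called 1 lower and 0 higher, DESeq2 3 lower and limma-voom 1 lower, with 1 higher (1.1%, against 8.7% of all genes) and 16 lower (17.6%, against 9.8%) at an unadjusted p under 0.05. In UNX/DOCA ITF2357 against Sham vehicle edgeR called 1 higher and 0 lower, DESeq2 2 higher and 1 lower, and limma-voom 2 higher, with 5 higher (5.49%, against 10.7%) and 10 lower (11%, against 9.39%) at an unadjusted p under 0.05. The lists were chosen with earlier results known, and the shares of all genes that each tool called are those given above for the members.

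Receptor reads were found in every group, though the type III chain Il10rb was low, at 0.277 to 1.26 CPM (7 to 45 reads per library). All 6 receptor chains were tested, and 0 passed with edgeR, DESeq2 or limma-voom. Ifnar1 ran from 29 to 39.9 CPM, Ifngr2 from 140 to 190.3 and Ifnlr1 from 2.96 to 6.65 CPM over the 12 libraries. Ifngr1, the binding chain for interferon gamma, was at 40.03, 42.5, 59.3 and 44.1 CPM in Sham vehicle mice, 50.9, 56.95, 79.8 and 74.2 in UNX/DOCA vehicle mice and 48.3, 63.6, 58.5 and 70.4 in UNX/DOCA ITF2357 mice. Its log2 fold change was 0.49 ± 0.17 SE (adjusted p = 0.197) in UNX/DOCA vehicle against Sham vehicle, with UNX/DOCA vehicle replicates 3 and 4 highest, and 0.21 ± 0.17 SE (adjusted p = 0.853) without them.

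Of the signal transducers described here, none passed with edgeR. Stat3, which carries signals of the interleukin 6 family, was at 128, 129, 158 and 165 CPM in Sham vehicle mice, 188, 223, 296 and 259 in UNX/DOCA vehicle mice and 130.2, 179, 142 and 188 in UNX/DOCA ITF2357 mice. Every UNX/DOCA vehicle mouse was above every Sham mouse, with a log2 fold change of 0.74 ± 0.15 SE (adjusted p = 0.0954), and in UNX/DOCA ITF2357 against UNX/DOCA vehicle it was -0.59 ± 0.15 SE (adjusted p = 0.0817). DESeq2 called Stat3 in both comparisons (adjusted p = 0.00189 and 0.0115), and limma-voom called it in the first (adjusted p = 0.0273). edgeR called Stat3 without UNX/DOCA vehicle replicate 1 in both (adjusted p = 0.0238 and 0.0431) and with a replicate block in the first (adjusted p = 0.0453). Its log2 fold changes were 0.50 ± 0.16 SE (adjusted p = 0.645) and -0.37 ± 0.16 SE (adjusted p = 0.414) without UNX/DOCA vehicle replicates 3 and 4. Jak1, a kinase bound to these receptors, was -0.16 ± 0.10 SE (adjusted p = 0.418) in the first comparison.

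Among genes of sensing and induction, Trim25, a ubiquitin ligase that acts with RIG-I, was the 1 gene that edgeR called. It was at 36.7, 34.1, 34.1 and 28.95 CPM in Sham vehicle mice, 28.9, 47.8, 38.7 and 42.3 in UNX/DOCA vehicle mice and 46.7, 64.6, 48.3 and 49.5 in UNX/DOCA ITF2357 mice. Every ITF2357 mouse but replicate 1 was above all other mice, and all 4 were above all Sham mice. The log2 fold change of Trim25 in UNX/DOCA ITF2357 against Sham vehicle was 0.64 ± 0.15 SE (adjusted p = 0.0474). The call held in DESeq2 and limma-voom. It was lost with a replicate block, without UNX/DOCA vehicle replicates 3 and 4 together, and in 9 of 12 fits that left out 1 library, namely each Sham vehicle or UNX/DOCA ITF2357 library or UNX/DOCA vehicle replicate 4. Myd88, an adaptor of Toll-like receptors, was lower in all ITF2357 mice than in any UNX/DOCA vehicle mouse, at 11.1, 9.92, 11 and 9.61 CPM in Sham vehicle mice, 11.4, 12.2, 18.6 and 15.1 in UNX/DOCA vehicle mice and 9.24, 10.7, 10.1 and 10.2 in UNX/DOCA ITF2357 mice. Its log2 fold change was -0.51 ± 0.14 SE (adjusted p = 0.0915) with edgeR. It passed with DESeq2 (adjusted p = 0.0202) and with edgeR without UNX/DOCA vehicle replicate 1 (adjusted p = 0.0474). Without UNX/DOCA vehicle replicates 3 and 4 it was -0.24 ± 0.11 SE (adjusted p = 0.448). Irf3, which starts the transcription of interferon beta, was -0.28 ± 0.09 SE (adjusted p = 0.138) in the same comparison.

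The class I presentation list held the 1 pathway gene that edgeR called lower. Psmb10, the third catalytic subunit of the immunoproteasome, was at 33.5, 31.96, 32.3 and 32.04 CPM in Sham vehicle mice, 42.2, 37.7, 39.7 and 55.9 in UNX/DOCA vehicle mice and 20.8, 31.04, 27.8 and 23.9 in UNX/DOCA ITF2357 mice. All 4 ITF2357 mice were below all 4 UNX/DOCA vehicle mice, and below all Sham mice. Psmb10 had a log2 fold change of -0.76 ± 0.14 SE (adjusted p = 0.03) against UNX/DOCA vehicle. The call held in DESeq2 and limma-voom, and limma-voom also called Psmb10 higher in UNX/DOCA vehicle than in Sham vehicle (0.52, adjusted p = 0.0449). The edgeR call was lost with a replicate block, with a fit of the 2 groups alone, and without UNX/DOCA vehicle replicates 3 and 4. It was also lost in 6 of 12 fits that left out 1 library, namely Sham vehicle replicate 2 or 4, UNX/DOCA vehicle replicate 4, or UNX/DOCA ITF2357 replicate 1, 3 or 4. In contrast to Psmb10, its fellow subunits Psmb8 (-0.13 ± 0.27 SE, adjusted p = 0.843) and Psmb9 (0.13 ± 0.21 SE, adjusted p = 0.792) did not pass, and a difference between the 3 genes was not tested. B2m, the light chain of class I molecules, was at 87.3, 100.4, 84.98 and 86.8 CPM in Sham vehicle mice, 114, 123, 175 and 361 in UNX/DOCA vehicle mice and 104, 215, 125 and 125 in UNX/DOCA ITF2357 mice. H2-K1, a class I heavy chain, was at 40.5, 39.3, 33.98 and 32.7 CPM in Sham vehicle mice, 41.9, 43.2, 74.7 and 171 in UNX/DOCA vehicle mice and 52.9, 107, 63.2 and 57.3 in UNX/DOCA ITF2357 mice. For both genes every operated mouse was above every Sham mouse, and UNX/DOCA vehicle replicate 4 and UNX/DOCA ITF2357 replicate 2 were the 2 highest libraries. The log2 fold changes in UNX/DOCA vehicle against Sham vehicle were 1.10 ± 0.34 SE (adjusted p = 0.17) and 1.17 ± 0.41 SE (adjusted p = 0.212). DESeq2 called B2m there (adjusted p = 0.0237). Without UNX/DOCA vehicle replicates 3 and 4 the values were 0.40 ± 0.24 SE (adjusted p = 0.796) for B2m and 0.22 ± 0.25 SE (adjusted p = 0.922) for H2-K1. In that fit H2-K1 passed in UNX/DOCA ITF2357 against Sham vehicle (0.93 ± 0.20 SE, adjusted p = 0.0454). H2-K1 has close relatives in the class I family, so reads may be split between them.

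Of 49 further interferon-induced genes that were tested, 0 passed with edgeR in each comparison. At an unadjusted p under 0.05 there were 10 higher (20.4%, against 9.42% of all genes) and 1 lower in the first comparison, 0 higher and 7 lower (14.3%, against 9.8%) in the second, and 2 higher and 6 lower (12.2%, against 9.39%) in the third. DESeq2 called Ifi27l2a, Ifitm1, Ifitm3 and Ly6a higher in the first, and Ly6a higher and Uba7 lower in the third, and limma-voom called Ifitm3 and Ly6a in the first and Ly6a in the third. Ly6a (Sca-1), a surface protein of endothelial and progenitor cells, was at 81.3, 92.8, 113 and 89.7 CPM in Sham vehicle mice, 119, 172, 238 and 235 in UNX/DOCA vehicle mice and 113, 190.2, 143 and 156 in UNX/DOCA ITF2357 mice. Ifitm3, which blocks virus entry, was at 27.98, 29.8, 26.1 and 27.99 CPM in Sham vehicle mice, 35.1, 34.7, 70.6 and 48.9 in UNX/DOCA vehicle mice and 27.9, 31.5, 37.7 and 37.6 in UNX/DOCA ITF2357 mice. Both were higher in every UNX/DOCA vehicle mouse than in any Sham mouse, and highest in UNX/DOCA vehicle replicate 3. The log2 fold changes were 1.02 ± 0.21 SE (adjusted p = 0.0954) and 0.76 ± 0.20 SE (adjusted p = 0.125) with edgeR. Ly6a passed with DESeq2 (adjusted p = 0.000885), with limma-voom (adjusted p = 0.0212), with a replicate block (adjusted p = 0.0455) and without UNX/DOCA vehicle replicate 1 (adjusted p = 0.0169). Ifitm3 passed with DESeq2 (adjusted p = 0.0138), with limma-voom (adjusted p = 0.0408) and without UNX/DOCA vehicle replicate 1 (adjusted p = 0.0425). The values were 0.63 ± 0.20 SE (adjusted p = 0.645) for Ly6a and 0.32 ± 0.12 SE (adjusted p = 0.686) for Ifitm3 without UNX/DOCA vehicle replicates 3 and 4. That fit had fewer mice and called 1 gene of all in the first comparison, so its adjusted p cannot show that a difference was absent. Uba7, the enzyme that activates Isg15, was lower in every ITF2357 mouse than in any Sham mouse, at -0.36 ± 0.11 SE (adjusted p = 0.106) with edgeR and an adjusted p of 0.0432 with DESeq2. Of 7 tested negative regulators, 0 passed with any of the 3 tools in each comparison, with Ptpn2 at 0.33 ± 0.15 SE (adjusted p = 0.296) in the first and Samhd1 at -0.27 ± 0.12 SE (adjusted p = 0.234) in the second.

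Lymphocyte markers were near 0 throughout. The 8 T and NK cell markers summed to 1.34 to 3.92 CPM. The 4 B cell markers summed to 0.361 to 0.776 CPM in UNX/DOCA ITF2357 and to 1.03 to 3.84 in the other groups. The part of these cells, of macrophages and of neutrophils in the values above was not tested. Leaving out UNX/DOCA vehicle replicates 3 and 4 cannot show it, because replicate 4 was also the highest library for 12 of 36 members.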

How the data were processed

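Raw read counts per gene, as the authors deposited them, were used for 12 libraries (left ventricle, poly(A) RNA, pairs of 150 bp reads). Per the submitters' processing notes, FastQC 0.11.9, STAR 2.7.10b and the mm39 build were used. For the counting tool, its strand setting and the annotation release, a statement is not given in the sources used here. Per the labels, replicates are separate animals.

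The test was edgeR 4.0.16 (R 4.3.3) with filterByExpr (10 counts), TMM scaling and a robust quasi-likelihood fit with a term per group over all 12 libraries (9 residual degrees of freedom, common biological coefficient of variation 0.187). Benjamini-Hochberg adjustment ran over 16981 genes per comparison, with a threshold of 0.05. Every p without another tool's name is from this fit, and SE is the absolute log2 fold change over the square root of F. The fit was tested on simulated data. DESeq2 1.42.0 and limma 3.58.1 (voom with sample weights) were alternatives, beside other scaling, other filters, a fit of 2 groups, a replicate block and left-out libraries. Symbols came from a GRCm38 annotation by Ensembl identifier, and exon lengths from the same annotation.

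The members, gene lists and named genes were chosen with earlier results of these data known. Named were all members that passed (up to 10 per direction), else the 3 smallest p in each direction, a fixed set of 28 members given by library, and pathway genes with the smallest p.

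Replicate numbers in the titles were not treated as pairs in the main fit. Over 12 pairs of libraries with the same number, centred expression correlated between -0.19 and 0.25, which cannot exclude a weak shared effect. Intervals cover the spread between these mice only. The values of 1 gene of the wider pathway are not reported here.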

Additional observations from a re-analysis of the deposited data

Results flagged for a closer look

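In 7 of 108 groups of 4 mice, 1 mouse lay far from the other 3 by Dixon's ratio (the gap over the group's range), where chance gives about 1 in 20 groups. Irf9 in UNX/DOCA vehicle replicate 1 was at 11.98 CPM, against 20.1 to 20.79 in the other 3 mice. Ddx58 in Sham vehicle replicate 2 was at 17.8 CPM, against 13.97 to 14.6. Ifi35 was low in Sham vehicle replicate 4 at 11.65 CPM, against 12.3 to 12.38, and low in UNX/DOCA ITF2357 replicate 1 at 11.31 CPM, against 12.49 to 12.66. In UNX/DOCA ITF2357 replicate 2, Bst2 was high at 8.503 CPM (7.838 to 7.934 in the others) and Psmb9 was high at 5.831 CPM (3.148 to 3.402). Oas1a was high in UNX/DOCA ITF2357 replicate 1 at 2.255 CPM, against 1.74 to 1.822.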

How the results depend on the processing

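The count of members called was 0 in all settings except 3: without UNX/DOCA vehicle replicate 1 it was 1 (Irf9) in each comparison with UNX/DOCA vehicle, a range of 0 to 1 over the libraries left out in turn, and with no filter it was 1 (Oas3) in UNX/DOCA ITF2357 against UNX/DOCA vehicle. The count over all genes moved far more. For UNX/DOCA vehicle against Sham vehicle (0 genes) it was 7 with upper-quartile scaling, 210 with no filter, 593 with DESeq2, 559 with limma-voom, 1 without UNX/DOCA vehicle replicates 3 and 4, and 0 to 380 with 1 library left out. For UNX/DOCA ITF2357 against UNX/DOCA vehicle (153) it was 352 with no filter, 926 with DESeq2, 239 with limma-voom, 5 with the 2 groups alone, 12 without replicates 3 and 4, and 14 to 243 with 1 library left out. For UNX/DOCA ITF2357 against Sham vehicle (298) it was 1168 with DESeq2, 1528 with limma-voom, 475 with the 2 groups alone, 481 without replicates 3 and 4, and 17 to 616 with 1 library left out. The cause was not tested. Without UNX/DOCA vehicle replicates 3 and 4 the log2 fold change changed sign for Tap1 (-0.03 against Sham vehicle) and Zbp1 (0.298 for ITF2357 against UNX/DOCA vehicle). Another 47 of 108 member values, all smaller than their SE, changed sign under some setting.

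With the replicate block the count over all genes was 31, 68 and 192, members called stayed at 0, and the member medians were 0.129, -0.157 and 0.038. Of 12 libraries, 3 correlated best with a library of their own number. Depth limits Isg15, Mx1, Oas3 and Zbp1, which had at most 24 reads in any library.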
